A study of Mus musculus with 12 samples.

Results

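The genes described here mark 3 related kinds of blood cell, the eosinophil, the basophil and the mast cell, and were followed in libraries of mouse bone endothelial cells (BECs). The 10 genes were taken by name, with earlier results of these data known. They are the eosinophil granule genes Prg2, Epx, Ear1, Ear2 and Ear6, the basophil and mast cell protease genes Mcpt8, Cpa3 and Prss34, and the receptor genes Fcer1a and Il5ra. They are 10 of 37620 genes in the deposited table, and all 10 had counts in all 12 libraries. The cells came from the tibia of mice labelled c57/Bl6, an inbred strain given as C57BL/6J in the methods, and were purified by endomucin, a glycoprotein on the surface of capillary and venous endothelium. There were 4 groups of 3 libraries each, females and males aged 2 weeks and females and males aged 65 weeks, with no treatment or altered allele named. The study addressed sex differences of BECs with age, and per its methods the 3 libraries of each group were those with the best RNA quality in their set. The labels do not say whether the replicates came from separate mice, so p-values measure the spread between these libraries, which may be technical.

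Eosinophils, basophils and mast cells arise from progenitors in the bone marrow. Eosinophils mature under interleukin-5 and pack their granules with very basic proteins, a peroxidase and ribonucleases, whose transcripts are made mainly while the cells develop in the marrow. Basophils and mast cells carry the high-affinity receptor for IgE and store histamine, carboxypeptidase and serine proteases. Basophils circulate, whereas mast cells complete their maturation in tissues. None of the 10 genes is a marker of endothelium.

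Library totals ran from 26044743 to 44569600 counts, with 35012947 or more in each library of 2 weeks and 34088694 or fewer in each of 65 weeks, so age and depth cannot be told apart. Levels are given as CPM, the count divided by the library total and scaled to a common total. Endothelial markers were measured in all groups, but all 10 of the endothelial list were lower at 65 weeks in both sexes, with a mean summed level of 2510 and 3194 CPM at 2 weeks and of 184 and 126 CPM at 65 weeks in females and males. Ptprc, the leukocyte surface gene also called CD45, stood at 179 ± 19.8 and 146 ± 2.73 CPM (SD, n = 3) in females and males of 2 weeks and at 648 ± 32.2 and 565 ± 106 CPM at 65 weeks. In such bulk libraries, fewer cells of a type and less RNA per cell cannot be told apart. A male library went partly against its label, and a female library did so to a smaller degree. The 65-week male replicate 3 had 4.49 CPM of Xist, the RNA of the inactive X chromosome, against 0 to 0.110 CPM in the other 5 male libraries and 95.1 to 184.6 CPM in females, while its 4 Y-linked genes summed to 134.2 CPM, within the male range. In replicate 3 of the 2-week females the same 4 genes summed to 0.653 CPM, against 0 to 0.0344 CPM in the other female libraries. Values without the 65-week male replicate 3 are given for only part of the results. They include some likeness values, the protease genes, Fcer1a between the sexes, counts and shares of genes called, some list genes and the list counts that moved. The fits without that library for likeness and for the lists were chosen after seeing the data.

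Promoter windows, 250 bases before to 50 bases after the start of a gene, are shown for 2 pairs of genes. Ear1 and Ear2 are neighbours on chromosome 14 whose levels moved together, and Fcer1a and Il5ra are the genes that rose with age. Windows were taken from RefSeq on build GRCm38.p6 for 9 of the 10 genes. They lie at chr14:43819590-43819889 on the minus strand for Ear1, chr14:44102404-44102703 on the plus strand for Ear2, chr1:173227180-173227479 on the minus strand for Fcer1a and chr6:106748988-106749287 on the minus strand for Il5ra. Capitals mark the letters GATA with A or T before and A or G after, on either strand, the motif of GATA factors, which include GATA1 and GATA2 of these lineages. Each sequence is written 5′ to 3′ on the strand of its gene.
Ear1: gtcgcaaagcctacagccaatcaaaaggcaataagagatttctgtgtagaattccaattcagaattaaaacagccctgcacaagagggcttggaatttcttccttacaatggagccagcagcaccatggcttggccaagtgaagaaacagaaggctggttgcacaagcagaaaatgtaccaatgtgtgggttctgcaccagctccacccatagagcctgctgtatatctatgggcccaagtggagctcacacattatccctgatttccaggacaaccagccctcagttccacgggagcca
Ear2: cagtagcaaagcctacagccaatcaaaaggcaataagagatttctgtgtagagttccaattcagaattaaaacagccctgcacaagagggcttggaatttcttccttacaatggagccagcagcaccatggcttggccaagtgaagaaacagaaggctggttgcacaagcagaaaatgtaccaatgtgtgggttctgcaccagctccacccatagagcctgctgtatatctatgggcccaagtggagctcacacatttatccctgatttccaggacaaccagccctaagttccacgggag
Fcer1a: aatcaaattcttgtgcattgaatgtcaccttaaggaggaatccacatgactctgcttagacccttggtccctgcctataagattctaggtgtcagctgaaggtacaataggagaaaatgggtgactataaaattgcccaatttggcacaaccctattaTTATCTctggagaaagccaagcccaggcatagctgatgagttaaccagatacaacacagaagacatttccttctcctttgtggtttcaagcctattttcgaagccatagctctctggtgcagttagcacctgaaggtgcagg
Il5ra: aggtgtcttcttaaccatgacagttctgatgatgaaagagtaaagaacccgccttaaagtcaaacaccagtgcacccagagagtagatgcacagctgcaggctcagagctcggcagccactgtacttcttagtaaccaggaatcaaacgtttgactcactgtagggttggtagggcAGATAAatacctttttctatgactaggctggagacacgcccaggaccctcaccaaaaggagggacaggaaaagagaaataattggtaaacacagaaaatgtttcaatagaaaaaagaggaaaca

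The windows of Ear1 and Ear2 were identical at 294 of 303 aligned positions (97.0%), whereas that of Ear6 matched them at 80.7% and 79.0%. The motif was present in 4 of the 9 windows, those of Cpa3, Prss34, Fcer1a and Il5ra. It stood in 9778 of all 32851 RefSeq windows (29.8%). In Il5ra it began 74 bases before the start, and in Fcer1a, where it lies on the opposite strand, 92 bases before. These letters were found in none of the 4 windows of eosinophil granule genes, those of Epx, Ear1, Ear2 and Ear6. The last 40 bases of the window were part of the longest coding transcript in GENCODE M39 for 7 of the 9 genes, and not for Ear2 and Fcer1a, so those windows may start from another transcript.

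Transcripts of eosinophil granules were abundant in every group and were not called different between ages or sexes. The 5 genes together made up 0.193% of all counts in females of 2 weeks, 0.154% in males of 2 weeks, 0.137% in females of 65 weeks and 0.148% in males of 65 weeks. Their summed levels were 1927 ± 75.4, 1542 ± 471, 1369 ± 566 and 1482 ± 186 CPM (SD, n = 3) in the same order. The spread was narrow in the 2-week females alone, and the ranges of all 4 groups overlapped except for 2-week females against 65-week males. With age, 0 of 5 were called in either sex by edgeR's quasi-likelihood test, where the share of all genes called was 59.7% in females and 55.5% in males.

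Prg2 (ENSMUSG00000027073, chr2:84789208-84813977 on build GRCm39) encodes major basic protein, the main protein of the eosinophil granule core. It was the most abundant of the 10 genes and ranked 60th of 37620 genes by mean CPM in females of 2 weeks, and 135th in females of 65 weeks. Its level was 1269, 1186 and 1280 CPM in replicates 1, 2 and 3 of the 2-week females. It was 791, 807 and 1345 CPM in the 2-week males, 635, 1132 and 507 CPM in the 65-week females, and 762, 1012 and 861 CPM in the 65-week males. The 3 libraries of 65-week females were all below those of 2-week females, while the 2 male groups overlapped. The log2 fold change with age was -0.58 ± 0.265 (SE) in females (adjusted p = 0.0919) and -0.04 ± 0.221 in males (adjusted p = 0.886). In females the call rested on single libraries and on the tool. Without replicate 2 of 65 weeks the change was -0.997 (adjusted p = 0.000816), with DESeq2 it was -0.61 (adjusted p = 0.0264), and with scaling by library totals it was -0.72 (adjusted p = 0.0408).

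**Figure D1:**
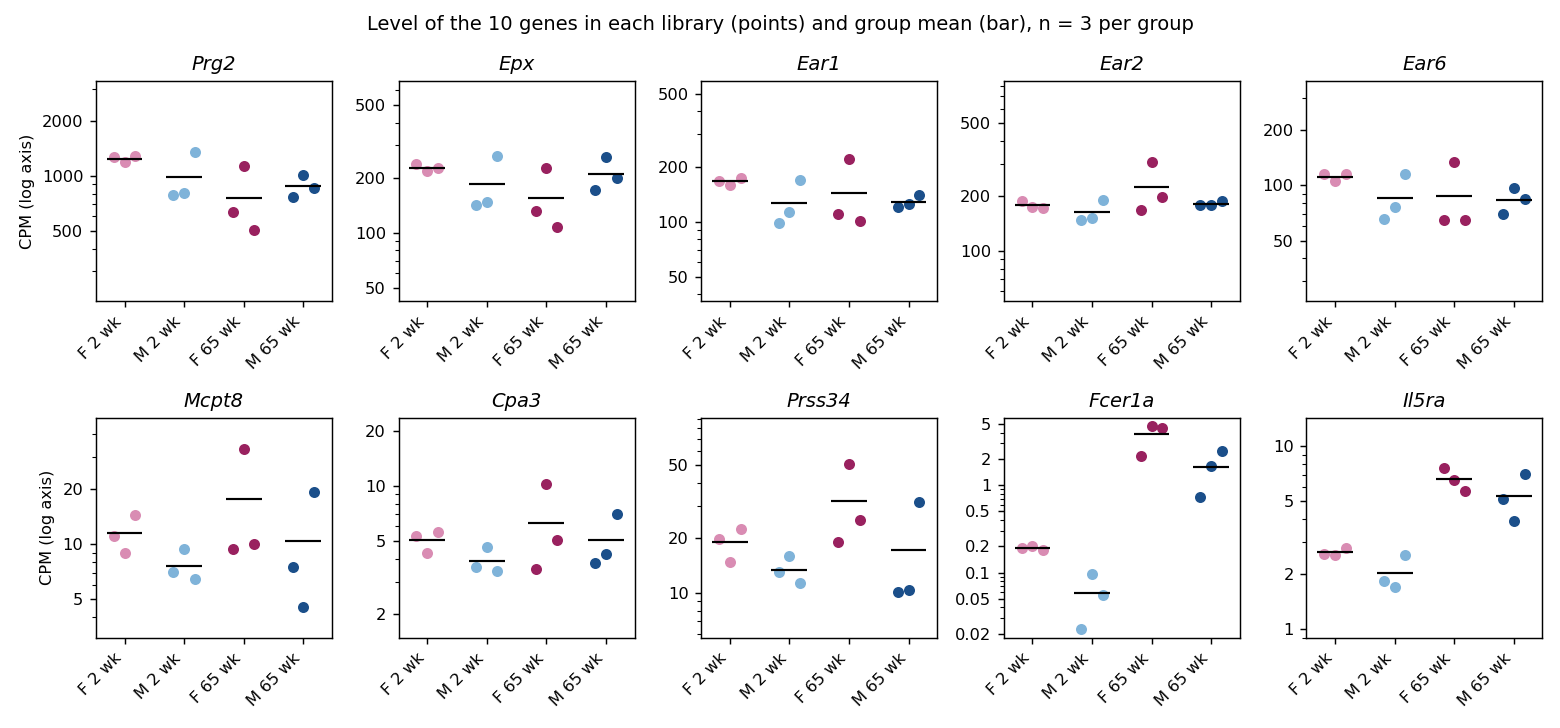
CPM of each gene on a log axis in the 4 groups, with 1 point per library and a bar at the group mean (n = 3). Prg2 stood at 507 CPM or more in every library, Fcer1a at 0.191 and 0.0577 CPM on average in females and males of 2 weeks and at 3.81 and 1.62 CPM at 65 weeks.

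Epx (ENSMUSG00000052234, chr11:87754826-87766362) encodes eosinophil peroxidase, a granule enzyme that makes hypobromous acid. Its level was 239, 216 and 225 CPM in the 2-week females, 142, 148 and 264 CPM in the 2-week males, 131, 227 and 108 CPM in the 65-week females, and 170, 260.04 and 200.04 CPM in the 65-week males. The order of libraries within each sex at 65 weeks and in males of 2 weeks was that of Prg2. Its log2 fold change with age was -0.41 ± 0.248 in females (adjusted p = 0.188) and 0.31 ± 0.261 in males (adjusted p = 0.347). The ratio of Epx to Prg2 stood at 0.182 ± 0.00605 and 0.186 ± 0.00901 in females and males of 2 weeks and at 0.207 ± 0.00627 and 0.238 ± 0.0175 at 65 weeks. The ratio varied less between libraries of a group than either level did.

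Ear1, Ear2 and Ear6 encode eosinophil-associated ribonucleases, a family that has expanded in the mouse on chromosome 14. Ear1 (ENSMUSG00000072601, chr14:44056222-44112974) ranged from 98.5 to 168.95 CPM in 2-week males and from 100.6 to 218.6 CPM in 65-week females. Ear6 (ENSMUSG00000062148, chr14:52091156-52092100) ranged from 65.9 to 115 CPM and from 64.8 to 134 CPM in the same groups. In these groups both were highest in replicate 3 of the males and in replicate 2 of the females. Ear1 changed by -0.07 ± 0.272 with age in females (adjusted p = 0.831) and Ear6 by -0.21 ± 0.27 (adjusted p = 0.529), on the log2 scale. In males these values were 0.14 ± 0.187 (adjusted p = 0.564) and 0.08 ± 0.213 (adjusted p = 0.773), and that of Ear6 turned to -0.039 with scaling by library totals.

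Ear2 (ENSMUSG00000072596, chr14:44311771-44340996) had the smallest within-group SD of log2 CPM of the 5 (0.25), and was the only one whose mean was higher at 65 weeks in both sexes by CPM and by the fitted change. It stood at 188, 174 and 171 CPM in the 2-week females, at 147, 152 and 191 CPM in the 2-week males, at 168, 307 and 198 CPM in the 65-week females, and at 177, 179 and 189 CPM in the 65-week males. The groups overlapped within both sexes. The log2 fold change was 0.47 ± 0.205 in females (adjusted p = 0.0786) and 0.27 ± 0.116 in males (adjusted p = 0.0816). With all 12 libraries in 1 model the female value passed the threshold (0.46, adjusted p = 0.0459), as it did without replicate 1 of 65 weeks (0.65, adjusted p = 0.0188). Without replicate 2 of 65 weeks it was 0.17 (adjusted p = 0.235). The ratio of Ear2 to Prg2 was 0.143 in females and 0.172 in males of 2 weeks, against 0.309 and 0.21 at 65 weeks.

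The ribonuclease genes resemble each other, and counting may have split their reads. Of the 100-base words in the Ear1 transcript, 152 of 614 (24.8%) also occurred in a transcript of another gene, chiefly the pseudogene Ear-ps9. For Ear2 it was 86 of 864 (9.95%), chiefly shared with Ear10, and for the other 8 genes it was 0. Ear10 had at most 2 counts in a library, and Ear14 had 0 in all. Ear1 also overlaps 2 pseudogenes of the table and Ear2 overlaps 1. Levels of Ear1 and Ear2 are uncertain to that degree.

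The 5 granule genes rose and fell together between libraries of the same group. With group means removed, log2 CPM of Prg2 correlated with that of Epx at r = 0.986, with Ear6 at 0.968, with Ear1 at 0.942 and with Ear2 at 0.83 over 12 libraries, which share a preparation and a total. These are descriptions with no test. The within-group SD of log2 CPM was 0.384 for Prg2, 0.406 for Epx and 0.25 for Ear2, against a median of 0.155 over genes with a mean log2 CPM of at least 3.

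**Figure D2:**
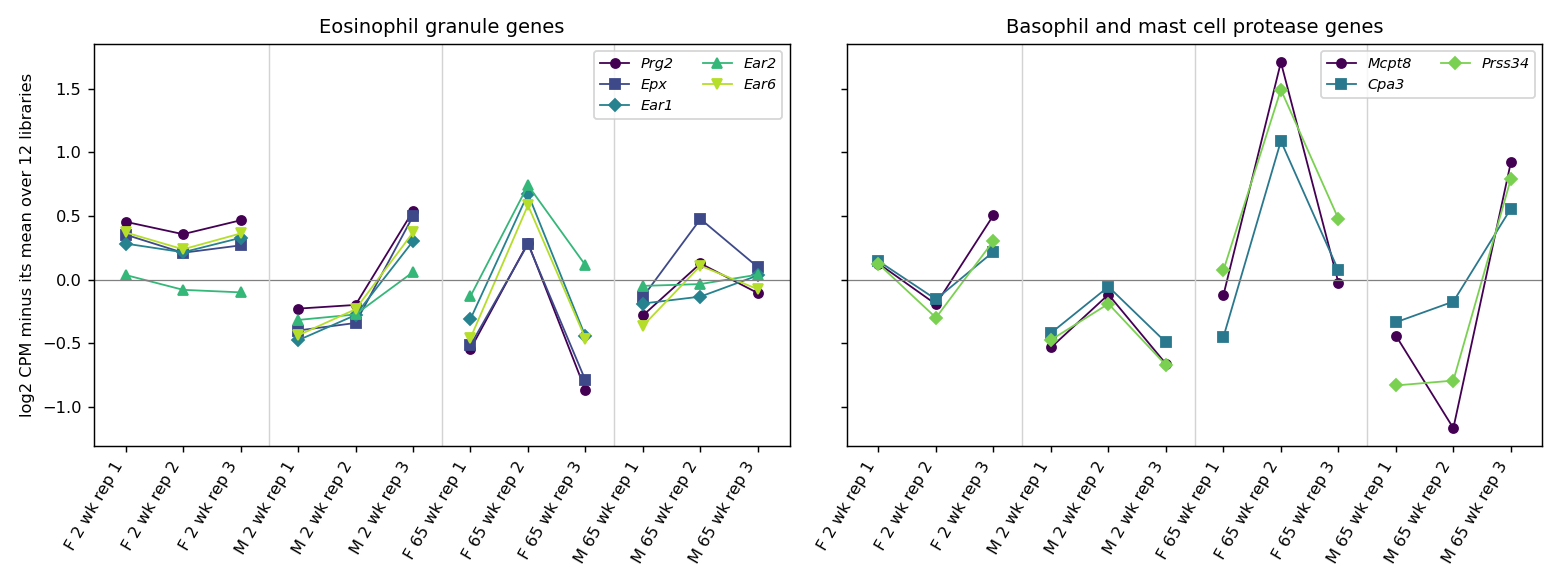
log2 CPM of each gene minus its mean over 12 libraries, by library, for the 5 eosinophil granule genes (left) and the 3 protease genes (right). Granule genes are high together in replicate 3 of the 2-week males and replicate 2 of the 65-week females, and protease genes in replicate 2 of the 65-week females and replicate 3 of the 65-week males.

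The libraries that stood apart decided which granule genes were called. Without replicate 2 of the 65-week females, 4 of the 5 were called lower with age, where 27.3% of all genes were called lower and 54.1% in either direction. They were Prg2 with Epx (log2 fold change -0.80, adjusted p = 0.00162), Ear6 (-0.66, adjusted p = 0.00147) and Ear1 (-0.52, adjusted p = 0.00506). Without replicate 3 of the 2-week males, 3 of the 5 were called higher with age in males, where 20.3% of all genes were called higher and 43.6% in either direction. They were Epx (0.64, adjusted p = 0.036), Ear1 (0.38, adjusted p = 0.0388) and Ear2 (0.38, adjusted p = 0.0265). With all libraries, the difference of the age change between the sexes, as the interaction term of a model over 12 libraries, was 0.72 ± 0.4 for Epx (adjusted p = 0.51) and 0.54 ± 0.38 for Prg2 (adjusted p = 0.604).

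Protease genes of basophils and mast cells were measured at far lower levels, and none was called with age or sex. Per kb of exon and over all 12 libraries, the mean level was 908 CPM for Prg2 and 70.9 CPM for Epx, against 13.5 CPM for Prss34, 11.8 CPM for Mcpt8 and 3.17 CPM for Cpa3. The summed level of the 3 was 35.5 ± 7.27 and 25 ± 4.47 CPM in females and males of 2 weeks and 55.6 ± 33.9 and 32.8 ± 21.6 CPM (SD, n = 3) at 65 weeks.

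Mcpt8 (ENSMUSG00000022157, chr14:56319623-56322730) encodes a serine protease that, despite its name, is the basophil protease of the mouse. It stood at 11.2, 8.94 and 14.5 CPM in the 2-week females, at 7.07, 9.43 and 6.47 CPM in the 2-week males, at 9.4, 33.4 and 10.1 CPM in the 65-week females, and at 7.54, 4.56 and 19.3 CPM in the 65-week males. Each group of 65 weeks held 1 library well above the others. The log2 fold change with age was 0.75 ± 0.48 in females (adjusted p = 0.212) and turned to -0.12 without replicate 2 of 65 weeks. In males it was 0.54 ± 0.459 (adjusted p = 0.345) and turned to -0.21 without replicate 3 of 65 weeks.

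Prss34 (ENSMUSG00000056399, chr17:25517368-25519142) encodes a tryptase-like protease, also of basophils. Its level was 19.7, 14.7 and 22.4 CPM in the 2-week females, 13.04, 15.9 and 11.4 CPM in the 2-week males, 19.04, 50.9 and 25.2 CPM in the 65-week females, and 10.2, 10.4 and 31.3 CPM in the 65-week males. The same 2 libraries were highest as for Mcpt8. The change with age was 0.88 ± 0.35 in females (adjusted p = 0.059), with an unadjusted p of 0.0362, and was called by DESeq2 (0.85, adjusted p = 0.0194) and without replicate 1 of the 65-week females (1.14, adjusted p = 0.0174). In males it was 0.46 ± 0.405 (adjusted p = 0.368) and turned to -0.26 without replicate 3 of 65 weeks.

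Cpa3 (ENSMUSG00000001865, chr3:20269774-20296362) encodes carboxypeptidase A3 of mast cells and basophils. It ranged from 3.41 to 5.59 CPM at 2 weeks and from 3.51 to 10.2 CPM at 65 weeks, again with its maximum in replicate 2 of the 65-week females. Its log2 fold change was 0.44 ± 0.37 in females (adjusted p = 0.331) and 0.48 ± 0.265 in males (adjusted p = 0.157). The male value was 0.18 without replicate 3 of 65 weeks (adjusted p = 0.511), and the female value turned to -0.12 without replicate 2. Within groups and over 12 libraries, log2 CPM of Prss34 correlated with that of Mcpt8 at r = 0.946 and with Cpa3 at 0.927, and with that of Prg2 at 0.265. Over the 15 pairs of a protease and a granule gene, r ran from 0.19 for Epx with Prss34 to 0.692 for Ear2 with Cpa3, below every r within either group of genes. Without replicate 3 of the 65-week males, these pairs ran from 0.375 for Epx with Mcpt8 to 0.781 for Ear2 with Cpa3 over 11 libraries, against 0.796 or more between granule genes and 0.879 or more between proteases. Replicate 2 of the 65-week females was high in both.

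**Figure D3:**
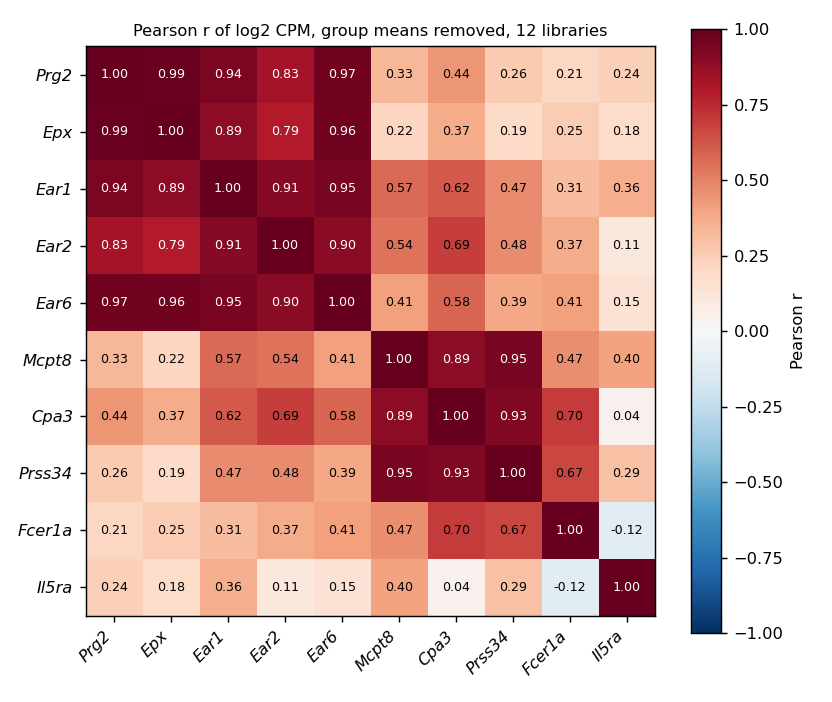
Pearson r of log2 CPM between the 10 genes over 12 libraries after group means were removed, with red for positive and blue for negative r. The highest r between granule genes was 0.986 (Prg2 with Epx) and between protease genes 0.946 (Mcpt8 with Prss34), while Il5ra has an r of at most 0.404 with any of them.

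Mature mast cell genes were near the limit of detection. Tpsab1, a tryptase, had 0 counts in all 12 libraries, which allows up to 3 counts in each, and the receptor genes Mrgprb1 and Mrgprb2 had at most 1 count. Cma1, Mcpt1, Tpsb2 and Mcpt4, which encode mast cell chymases and a tryptase, had at most 18 counts in a library, and Mcpt2 had 5 to 49. Mcpt2 was called lower in males without replicate 3 of 65 weeks (-1.25, adjusted p = 0.0345). Of the 11 genes of the mast cell list, 4 could be tested in each age comparison, and 3 were called higher in females and 2 in males. Those called in both were Kit, the receptor of stem cell factor that progenitors also carry (0.78 in females and 0.62 in males, adjusted p = 0.00228 and 0.00129), and Hpgds, a prostaglandin D synthase that macrophages also carry (0.88 and 1.07, adjusted p = 5.46e-05 and 0.00671).

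Fcer1a and Il5ra were the genes that rose with age, in both sexes. They were 2 of 10 called in females and 2 of 10 in males, where 30.2% of all genes were called higher and 29.5% lower in females, and 27% higher and 28.5% lower in males. Of the 2, Fcer1a passed the expression filter only through the 65-week libraries where it was high. The median log2 fold change of the 10 genes was 0.46 in females and 0.38 in males, against 0.01 over all genes in both. Without replicate 2 of the 65-week females, Prg2, Epx, Ear1, Ear6, Mcpt8 and Cpa3 had negative changes. The sign of the female median thus rests on that library. Ranges of the age groups did not overlap for Prg2, Fcer1a and Il5ra in females and for Fcer1a and Il5ra in males, where they did not overlap for 69.2% and 65.4% of all genes. Both counts of 10 were below the share of all genes. In females, 4 of 10 were called with DESeq2 (61.3% of all genes), 4 without replicate 1 of 65 weeks (55.8%) and 6 without replicate 2 (54.1%). Calls beyond Fcer1a and Il5ra ran both ways, and with DESeq2 Prg2 was lower and Prss34 higher. Ear2 and Prss34 were higher without replicate 1, and Prg2, Epx, Ear1 and Ear6 were lower without replicate 2. In males, 1 of 9 was called with a minimum count of 30 (57.5%). There were 5 of 10 without replicate 3 of 2 weeks (43.6%) and 2 of 10 without replicate 3 of 65 weeks (62%). The further genes called without replicate 3 of 2 weeks, Epx, Ear1 and Ear2, were higher.

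Fcer1a (ENSMUSG00000005339, chr1:173048851-173054781) encodes the IgE-binding chain of the high-affinity IgE receptor. Libraries held 7, 7 and 7 counts in the 2-week females and 1, 4 and 2 counts in the 2-week males, against 63, 161 and 133 counts in the 65-week females and 20, 45 and 64 counts in the 65-week males. The levels were 0.191 ± 0.00856, 0.0577 ± 0.0367, 3.81 ± 1.42 and 1.62 ± 0.864 CPM in that order of groups (SD, n = 3), so every library of 65 weeks was above every library of 2 weeks. All 2-week libraries were under the minimum count of 10, and the gene passed the filter only through the 65-week libraries where it was high. The log2 fold change with age was 4.43 ± 0.421 in females (adjusted p = 5.79e-05) and 4.83 ± 0.658 in males (adjusted p = 0.000589). The male value depends on the prior count, since 2 of the 3 young libraries were within the floor of 3 counts. By pooled counts the ratio of 65 to 2 weeks was 20.2 (95% exact interval 13.03 to 33.1) in females and 28.1 (13.3 to 71.4) in males, for counting error only. With no expression filter the changes were 4.40 (adjusted p = 2.31e-05) and 4.78 (adjusted p = 0.000286), and with a minimum count of 30 it was not tested in males.

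The other chains of the IgE receptor had smaller fitted changes, a difference that was not tested. Ms4a2, the beta chain, stood at 1.99 and 1.6 CPM at 2 weeks and at 3.5 and 2.43 CPM at 65 weeks in females and males, and was not called (log2 fold change 0.95, adjusted p = 0.0605, and 0.70, adjusted p = 0.08). Fcer1g, the gamma chain that many Fc receptors share, was called higher in both (0.93 and 0.61, adjusted p = 0.000545 and 0.00735). The ratio of Fcer1a to Prss34 was 0.0105 and 0.0042 at 2 weeks in females and males and 0.129 and 0.103 at 65 weeks. Within groups, Fcer1a correlated with Cpa3 at r = 0.698 and with Prss34 at 0.67 over 12 libraries, and at 0.613 and 0.494 without replicate 3 of the 65-week males. Each library of 2 weeks held 7 Fcer1a counts or fewer, so its deviations there are largely counting error.

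Il5ra (ENSMUSG00000005364, chr6:106686622-106725998) encodes the interleukin-5 binding chain of the receptor by which eosinophils mature, and some B cells also carry it. Its level was 2.59, 2.54 and 2.79 CPM in the 2-week females, 1.84, 1.7 and 2.56 CPM in the 2-week males, 7.57, 6.57 and 5.7 CPM in the 65-week females, and 5.16, 3.89 and 7.06 CPM in the 65-week males. All libraries of 65 weeks were above all libraries of 2 weeks. The log2 fold change was 1.46 ± 0.187 in females (adjusted p = 0.000295) and 1.51 ± 0.28 in males (adjusted p = 0.00266), and leaving out each library in turn kept the call. The ratio to Prg2 was 0.00212 and 0.00211 at 2 weeks and 0.00965 and 0.00627 at 65 weeks in females and males. In the library-to-library spread within groups it had an r of 0.241 with Prg2 and of 0.29 with Prss34 over 12 libraries, and the latter turned to -0.251 without replicate 3 of the 65-week males.

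Ratios to Ptprc, which count these genes against the leukocyte transcript, gave another order. The ratio of Il5ra to Ptprc was 0.0149 ± 0.00173 and 0.014 ± 0.0034 at 2 weeks and 0.0103 ± 0.00198 and 0.00938 ± 0.00117 at 65 weeks in females and males. The ratio of Prg2 to Ptprc was 7 ± 0.583 and 6.74 ± 2.27 at 2 weeks and 1.17 ± 0.497 and 1.6 ± 0.443 at 65 weeks. That of Prss34 was 0.106 and 0.0918 against 0.0486 and 0.0289. Fcer1a alone of these 4 had a higher ratio at 65 weeks, with 0.00108 and 0.000393 against 0.00582 and 0.00281. The lower ratio for Il5ra stands beside its higher CPM. The ratios are descriptions, and the part of the leukocyte transcript in the changes by CPM was not tested.

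**Figure D4:**
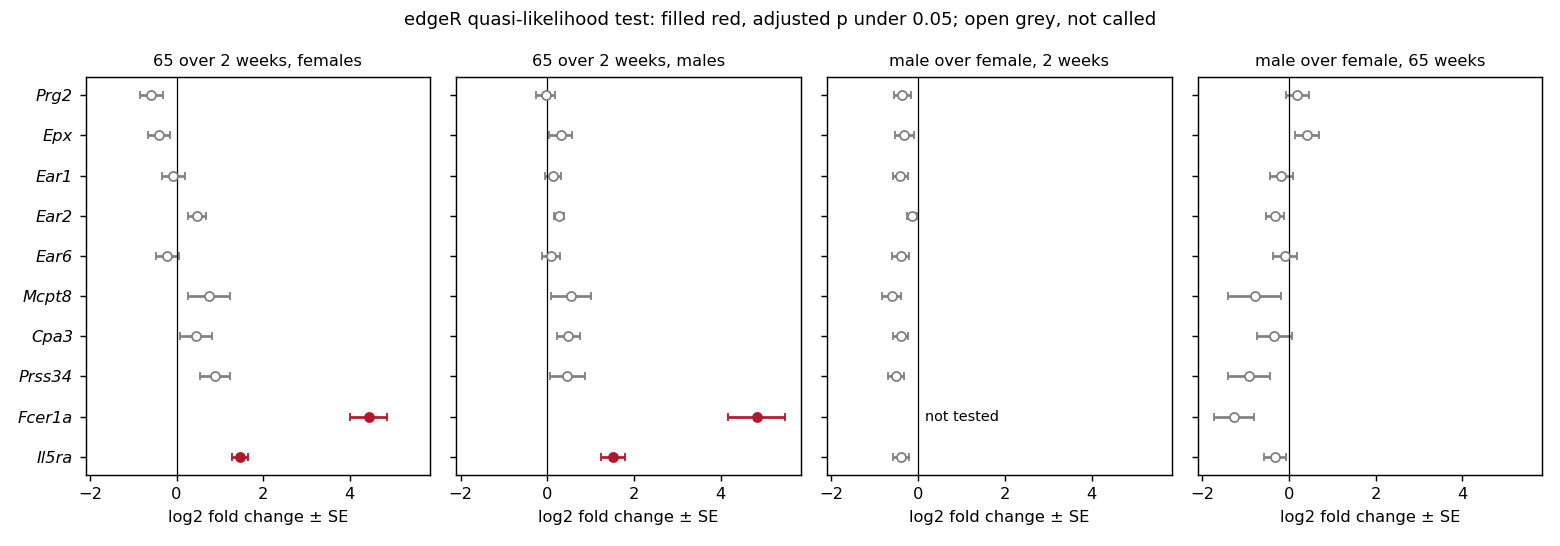
log2 fold change ± SE of the 10 genes in the 4 comparisons, with filled red points for an adjusted p under 0.05 and open grey points otherwise. Fcer1a and Il5ra are the only filled points, in females (4.43 and 1.46) and in males (4.83 and 1.51), and no gene is filled between the sexes.

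Between the sexes, 0 of the 9 genes tested at 2 weeks and 0 of 10 at 65 weeks were called by edgeR, where 0.0332% and 0.042% of all genes were. At an unadjusted p under 0.05 there were 2 at 2 weeks, Mcpt8 (male over female, log2 fold change -0.61 ± 0.22, adjusted p = 0.244) and Prss34 (-0.51 ± 0.191, adjusted p = 0.252), and 1 at 65 weeks, Fcer1a (-1.27 ± 0.469, adjusted p = 0.396). DESeq2 also called 0 at both ages. All 9 genes tested at 2 weeks had a fitted level lower in males, with a median of -0.40, against 0.01 over all genes. The granule genes moved together between libraries, as did the proteases, so shared directions of these genes are not independent. Ranges overlapped between the sexes for all 9, where they did not for 21.7% of all genes. Fcer1a was too low for the test at 2 weeks, and its 3 male libraries were all below its 3 female ones. At 65 weeks ranges overlapped for all 10 genes, against no overlap in 15.5% of all genes. Of the 10, 8 had a lower fitted level in males, Prg2 (0.20) and Epx (0.42) being the exceptions.

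Without replicate 3 of the 65-week males, the library with Xist counts, 5.65% of all genes were called between the sexes at 65 weeks, and the genes described here called were still 0 of 10. Prss34 then stood at -1.61 (adjusted p = 0.054), Mcpt8 at -1.52 (adjusted p = 0.169) and Fcer1a at -1.66 (adjusted p = 0.101). The age change differed between the sexes for 0 of 10 genes, where 0.00635% of all genes were called with every library and 4.66% without that one. No gene of the 10 reached an unadjusted p under 0.05 in that interaction.

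Other genes of eosinophils split into those that followed Prg2 and those that did not. Of the 5 further eosinophil genes, 4 could be tested, and 1 was called higher with age in each sex, a different one in each. Prg3, the neighbour and relative of Prg2 that also encodes a granule protein, went with it between libraries of a group (r = 0.964 over 12 libraries), as did Alox15, a lipoxygenase (0.948). Siglecf, a surface lectin of eosinophils and of some macrophages, did not (0.199), and was called higher with age in males (0.99, adjusted p = 0.00567) with 0.25 in females (adjusted p = 0.158). Ccr3, the eotaxin receptor of mature eosinophils, ran against Prg2 (r = -0.812). It stood at 60.8, 56.01 and 57.4 CPM in the 2-week females, at 115, 111 and 58.6 CPM in the 2-week males, at 87.4, 76.1 and 101.9 CPM in the 65-week females, and at 132, 102 and 137 CPM in the 65-week males. In the 3 groups other than 2-week females it was lowest in the library where Prg2 was highest, and rose with age in females (0.74, adjusted p = 0.000688) with 0.49 in males (adjusted p = 0.133). Ccr3 was singled out after its values were seen.

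The same libraries differed in genes of other cells. C1qb, a complement gene of macrophages also singled out after its values were seen, stood at 604 and 529 CPM in replicates 1 and 2 of the 2-week males and at 330 CPM in replicate 3, where Prg2 was highest. It was 566 CPM in replicate 2 of the 65-week females against 649 and 770 CPM in the other two. Its r with Prg2 within groups was -0.828, that of C1qa was -0.801, and that of Csf1r, also on the macrophage list, was -0.093. In the 65-week females, C1qa, C1qc, Vcam1 and Mrc1 were also lowest in replicate 2, while Adgre1 and Cd68 stood between replicates 1 and 3. Csf1r was highest in replicate 2, at 1045 CPM against 708 and 1007 CPM. The summed level of 8 macrophage genes ranged from 3465 to 4016 CPM in 2-week females, 3852 to 6608 CPM in 2-week males, 4744 to 6015 CPM in 65-week females and 3900.1 to 5792 CPM in 65-week males. Levels within a library are shares of one total, and the part of these cells in the levels of granule genes was not tested.

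**Figure D5:**
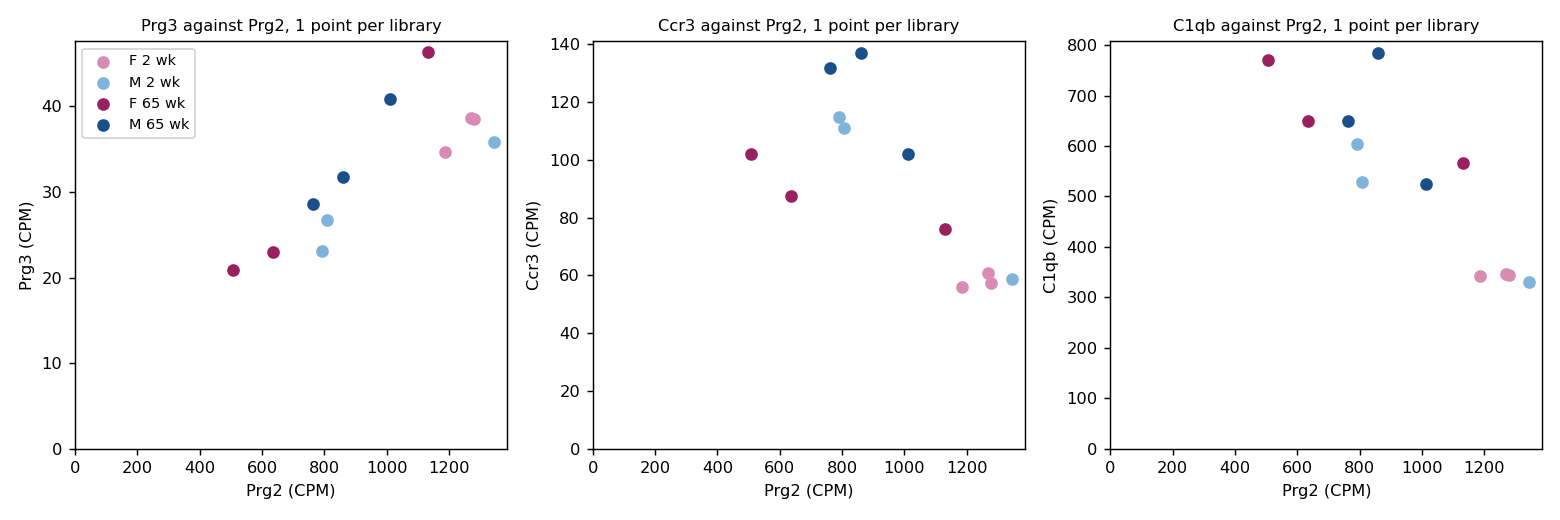
CPM of Prg3, Ccr3 and C1qb against CPM of Prg2, with 1 point per library coloured by group and axes that start at 0. Prg3 increases with Prg2, while Ccr3 and C1qb are mostly lower in the libraries with more Prg2, as in replicate 3 of the 2-week males (58.6 CPM of Ccr3 and 330 CPM of C1qb at 1345 CPM of Prg2).

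Of the 6 further basophil genes, 5 could be tested, and 1 was called in each sex. This was Hdc, the enzyme that makes histamine, which neutrophil precursors also carry, with a log2 fold change of 2.56 in females (adjusted p = 6.45e-05) and 2.92 in males (adjusted p = 1.81e-06). Its r with Prss34 within groups was -0.0568, and that of Il4 was -0.163, against 0.832 for Cyp11a1, 0.775 for Ms4a2 and 0.716 for Cd200r3. Il13, a cytokine of basophils, was near 0 in all groups. Slc18a2, the vesicle transporter that loads histamine and a gene of the mast cell list, was called higher in females (1.22, adjusted p = 0.00173), with -0.15 in males (adjusted p = 0.676), and its r with Prss34 was 0.771.

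Among 7 cytokine and Fc receptor chains, 4 were called higher with age in females and 5 in males, with 1 called lower in males. The 4 called higher in both sexes were Fcer1g, Csf2ra, a GM-CSF receptor chain (0.96 and 1.51, adjusted p = 0.00232 and 2.1e-05), Crlf2 of the TSLP receptor (0.90 and 0.92, adjusted p = 0.000923 and 0.000408) and Csf2rb, the signalling chain shared by the receptors for interleukin-3, interleukin-5 and GM-CSF (0.84 and 0.89). Of 9 transcription factor genes of these lineages, 3 were called higher in females, and 4 higher and 1 lower in males. Those called higher in both with the largest changes were Cebpe, a factor of late granulocytes (0.97 and 2.42), Mitf of mast cells and other cells (1.21 and 0.92) and Zfpm1, a partner of GATA factors (0.56 and 0.99). Gata1 (-0.14 and 0.28) and Gata2 (-0.15 and -0.43) were not called in either sex. In males without replicate 3 of 65 weeks they were called, at 0.48 (adjusted p = 0.022) and -0.77 (adjusted p = 0.0106).

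Ligands of these lineages were mostly near 0. Il3 had 0 counts in all libraries and Il5 at most 2, and 3 of the 8 ligands could be tested with age. Kitl, the stem cell factor that endothelium and stroma make, was called lower in both sexes (-1.95 and -2.01), and Ccl24, an eotaxin, higher (2.17 and 3.25, adjusted p = 0.00255 and 0.00497) from 0.418 and 0.639 CPM. Of 9 relatives of the granule genes in other cells, 1 was called higher and 3 lower in females, and 4 higher and 3 lower in males. Rnase4 was called lower in both (-2.42 and -2.52), as were Ang (-0.75 and -1.20), a ribonuclease of many tissues, and Cpa1. Cpa1, a carboxypeptidase of the pancreas that passed the filter only through the 2-week libraries, averaged 0.678 CPM at 2 weeks in females and was at 0 counts in all 65-week males. Elane, the neutrophil elastase, was called higher in both (0.70 and 2.48), while Mpo, the neutrophil peroxidase and counterpart of Epx, was called higher in males (1.82, adjusted p = 0.00364) with 0.21 in females (adjusted p = 0.395).

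Lists of other cell types changed with age around these genes. All 10 neutrophil genes were called higher in both sexes, with a mean summed level of 5702 and 4154 CPM at 2 weeks and 14680 and 23992 CPM at 65 weeks in females and males. Of 8 B cell genes 7 were higher in both, and of 9 T and NK cell genes 9 were higher in females and 7 in males. All 6 megakaryocyte genes were lower in both sexes. Of 8 macrophage genes, 6 were called higher in females, and 3 higher and 1 lower in males. Of 8 erythroid genes, 2 were higher in each sex, and of 6 progenitor genes, 3 were higher and 1 lower in females and 1 higher and 2 lower in males. In males without replicate 3 of 65 weeks, 6 erythroid genes in place of 2 and 2 macrophage genes in place of 3 were higher, 1 B cell gene was also lower, and the counts of the other lists of other cell types stayed as they were. With every library, no gene of the 15 lists was called between the sexes at 2 or 65 weeks or in the interaction. Of all genes, 0.0332%, 0.042% and 0.00635% were. At an unadjusted p under 0.05 by edgeR, all 10 neutrophil genes passed in each, where 2683 of 15081, 1479 of 14287 and 1880 of 15747 genes did. No other list passed in full in all of them. These calls without replicate 3 of the 65-week males are not given. The part of the listed cell types in the changes of Fcer1a and Il5ra was not tested.

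The 3 genes most like each of the 10, by r of log2 CPM within groups over 12 libraries among 9777 or 9778 genes, included at least 1 other granule gene for each of the 5 granule genes. They were Epx, Aggf1 and Ear6 for Prg2 (0.986, 0.974 and 0.968), Prg2, Ear6 and Aggf1 for Epx, Prg3, Aggf1 and Prg2 for Ear6, Spns3, Alox15 and Ear6 for Ear1 (0.982, 0.972 and 0.951), and Eno3, Ear1 and Arhgef10l for Ear2. For the proteases they were Prss34, Cog2 and Daxx for Mcpt8 (0.946, 0.94 and 0.93), Cog2, Klf13 and Prss34 for Cpa3, and Med15, Cog2 and Mcpt8 for Prss34. For the receptors they were Zfp865, Nabp2 and Zbtb17 for Fcer1a (0.877, 0.875 and 0.871) and Bloc1s2, Zfp326 and Arpc5l for Il5ra (0.936, 0.93 and 0.92), with no member among them. Likeness over 12 libraries is a description, and that of Fcer1a includes 2-week libraries with 7 counts or fewer.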

How the data were processed

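RNA-seq libraries of purified BECs were made by the authors with a kit for total RNA (the label of the molecule names polyA RNA) and sequenced with paired reads of 100 bases. The deposited table holds raw counts per Ensembl gene, not normalised. Its sources differ: the methods of the study name STAR version 2.7.10a, featureCounts 2.0.1 and GRCm39, whereas the submitters' processing notes name TopHat2, HTSeq and mm9. Which of these made the counts, the annotation release and the use of strand are not given in the sources used here. The methods describe endomucin-coated magnetic beads for cultured BECs and the labels a sort into lysis buffer. A time point of 12 weeks was not analysed here.

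Gene symbols and positions came from GENCODE M39 (31052 of 37620 IDs matched, 99.3% of counts). Counts were tested with edgeR 4.0.16 in R 4.3.3 (quasi-likelihood F test, TMM scaling, filterByExpr with a minimum count of 10, Benjamini-Hochberg adjusted p under 0.05), over the 6 libraries of each comparison and over 12 for the age by sex interaction. DESeq2 1.42.0, other scalings, filters and thresholds, and leaving out each library were alternatives. Likeness and the male list counts without 65-week male replicate 3 were alternatives chosen after seeing the data. The test was checked on simulated counts, but the outcome is not given here and no result above rests on it. CPM use library totals, whereas fold changes use TMM, and scaling by totals moved the median of all genes by -0.14 in females and -0.12 in males with age (log2). For likeness, log2 CPM had a prior count of 2 and genes a mean log2 CPM of at least 3. Each of the 4 groups has 3 replicates, from the labels. Floors (3 counts) and intervals cover counting error only. The 10 genes and all lists were chosen with earlier results of these data known. All 10 were named. Of the lists, genes called with age in both sexes were named, at most the 3 largest changes per list, and other list genes that the text names were chosen after their values were seen.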

Additional observations from a re-analysis of the deposited data

How the results depend on the processing

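The counts of genes called with age were 2 of 10 in each sex. In females the count became 4 with DESeq2 and ranged from 2 to 6 when 1 library was left out (4 without 65-week replicate 1, 6 without 65-week replicate 2). In males it became 1 with a minimum count of 30, by which Fcer1a was no longer tested, and ranged from 2 to 5 (5 without 2-week replicate 3). Counts for sex and for the interaction stayed at 0 under all alternatives that were run. Il5ra kept its age calls without each library in turn. The shares of all genes called in the same fits stand beside these counts in the results above. With a replicate block the counts were 2, 2, 0, 0 and 0. Same-numbered libraries correlated at -0.675 to 0.37 in their deviations from group means, so the numbers were not taken as pairs, and the block moved no count.

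Scaling by library totals turned Ear6 in males to -0.039. Directions also turned when 1 library was left out, and the cause was not tested. With age in females the log2 fold change then ran from -0.52 to 0.13 for Ear1, -0.12 to 1.05 for Mcpt8 and -0.12 to 0.73 for Cpa3. With age in males it ran from -0.18 to 0.24 for Prg2, -0.024 to 0.38 for Ear1, -0.086 to 0.33 for Ear6, -0.21 to 0.89 for Mcpt8 and -0.26 to 0.71 for Prss34. For sex at 65 weeks it ran from -0.026 to 0.61 for Prg2, -0.38 to 0.27 for Ear1, -0.27 to 0.35 for Ear6, -1.52 to 0.069 for Mcpt8 and -0.63 to 0.21 for Cpa3. For the interaction it ran from -0.37 to 0.094 for Ear2, -0.91 to 0.66 for Mcpt8, -0.25 to 0.60 for Cpa3, -1.10 to 0.10 for Prss34 and -0.12 to 0.24 for Il5ra. Of these values with all libraries, none was called. Low counts limited Fcer1a at 2 weeks, where 2 of 3 male libraries held 3 counts or fewer. This was so although every library of 2 weeks was deeper than every library of 65 weeks.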
